A study of Mus musculus with 6 samples.

Results

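Tbx18 and 9 further genes of mural cells were followed in the cerebrum of 24-month-old mice, and these 10 genes were all found by symbol among the 38087 genes of the deposited table and all passed the filter on low counts. The 9 others are Pdgfrb, Rgs5, Abcc9, Notch3, Anpep, Acta2, Tagln, Myh11 and Nexn. Tbx18 was chosen by its values in this same comparison, because its counts did not overlap between the genotypes, so its difference is described here without a test. The question was whether genes of pericytes and vascular smooth muscle cells followed it. Total RNA came from 3 wild-type (WT) and 3 Shugoshin-1 haploinsufficient (Sgo1-/+) mice of the C57BL6 strain, 1 library per mouse, from cerebrum that held cortex and hippocampus and from which olfactory bulb, cerebellum and medulla had been removed. None of the mice was treated. The Sgo1-/+ mice lack 1 working copy of Sgo1, which encodes a protector of centromeric cohesion, in all cells of the body. The males were WT replicate 1 and Sgo1-/+ replicate 2, with females making up the other 4.

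Mural cells wrap the endothelial tube of blood vessels. Pericytes sit on capillaries within the basement membrane, and smooth muscle cells surround arteries and arterioles and contract through actin and smooth muscle myosin. Endothelial PDGF-B recruits pericytes through the receptor encoded by Pdgfrb, Notch ligands on endothelium act on NOTCH3 in mural cells, and the serum response factor (SRF) with its coactivator myocardin drives the contractile genes. Tbx18 encodes a T-box transcription factor that marks pericytes and vascular smooth muscle cells of the adult brain.

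The libraries held between 11123917 and 12505561 estimated counts, and since the reads carried no molecular identifiers, PCR copies may be among them and intervals given for counts cover counting error only. Sgo1 itself, listed under the older symbol Sgol1, had between 0 and 7 estimated counts in each library, too few to check the genotype. Run 258 held every WT library and run 259 every Sgo1-/+ library, so run and genotype cannot be told apart. WT replicate 1 stood apart, with a mean correlation of log2 CPM (counts scaled by library size) of 0.941 with the other libraries against 0.971 to 0.974 for the rest. Its 7 tested genes of cerebellum and brain stem had a median log2 ratio to the median library of 5.36, and its cortex and hippocampus genes one of -2.52. Many of the values that move by over 1.5 times without it are also given without it below. Those left out include the medians of the pericyte, Notch, T-box and endothelial lists and the value of Vtn. Across the transcriptome edgeR's quasi-likelihood fit with adjustment for false discovery (Benjamini and Hochberg) called 0 of 16337 genes tested (0%), while 333 (2.04%) had an unadjusted p under 0.05, 132 of them higher (0.808%) and 201 lower (1.23%) in Sgo1-/+. The groups did not overlap for 1119 genes (6.85%), with Sgo1-/+ higher for 536 (3.28%) and lower for 583 (3.57%).

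Of the 10 mural genes, 6 had an upstream sequence in RefSeq (mouse build GRCm38.p6): Tbx18, Rgs5, Abcc9, Notch3, Anpep and Acta2. The 250 bases before each start were searched on both strands for 3 motifs, which were the CArG box bound by SRF, the letters TGGGAA at the core of RBPJ sites, and the letters AGGTGTGA bound by T-box factors. TGGGAA was present in 3 of the 6 and in 21.6% of all 32851 RefSeq windows of this length. The CArG box (CC, 6 letters A or T, GG, in 1.47% of all windows) and AGGTGTGA (1.12%) had no exact match in any of the 6. No found site overlapped another. The search allowed no mismatch, so near matches were not counted. The Acta2 window holds ccctatatgg and ccttgttTGG, which each differ from the CArG pattern by a single letter. The latter shares letters with the TGGGAA match of that window. The 3 windows with TGGGAA are printed because Notch signalling through RBPJ is described further on. Each reads 5' to 3' on the strand of its gene, ends at the base before the start, and has the match, in either orientation, in capitals. They lie at chr9:87731261-87731510 (Tbx18, minus strand), chr6:142702275-142702524 (Abcc9, minus strand) and chr19:34255374-34255623 (Acta2, minus strand).
Tbx18: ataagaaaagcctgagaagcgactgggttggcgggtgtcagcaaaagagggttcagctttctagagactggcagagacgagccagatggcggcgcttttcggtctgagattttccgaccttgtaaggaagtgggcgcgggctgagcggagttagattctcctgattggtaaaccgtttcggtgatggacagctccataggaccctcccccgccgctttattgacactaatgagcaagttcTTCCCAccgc
Abcc9: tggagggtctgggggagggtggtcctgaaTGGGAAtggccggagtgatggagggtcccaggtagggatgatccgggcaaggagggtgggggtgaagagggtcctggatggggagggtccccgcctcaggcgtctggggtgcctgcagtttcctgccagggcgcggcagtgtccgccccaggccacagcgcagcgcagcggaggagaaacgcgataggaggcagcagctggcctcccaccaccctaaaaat
Acta2: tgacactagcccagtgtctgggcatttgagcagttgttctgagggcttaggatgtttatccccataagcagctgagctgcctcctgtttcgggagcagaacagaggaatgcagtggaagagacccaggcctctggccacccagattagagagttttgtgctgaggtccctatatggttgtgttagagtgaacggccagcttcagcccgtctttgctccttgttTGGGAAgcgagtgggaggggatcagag
In Tbx18 the match lay on the opposite strand, from base -10 to base -5 before the start. In Abcc9 it ran from -221 to -216 and in Acta2 from -27 to -22. A match describes letters in a window and does not show binding.

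Tbx18 lies on chromosome 9 from 87702800 to 87731260 on the minus strand of mm10, with 9 merged exons of 4718 bases in GENCODE M21. Its normalized counts (estimated counts scaled to a common library size) were 34.2, 33.2 and 28.1 in the WT libraries, in the order of their replicate numbers as in all such triplets here, and 11.6, 14.2 and 14.8 in the Sgo1-/+ libraries. Every Sgo1-/+ library was below every WT library, which is the pattern the gene was chosen by. The means were 31.8 ± 3.32 (SD, n = 3) and 13.5 ± 1.72 (SD, n = 3), a log2 fold change of -1.24 ± 0.277 (SE) with a 95% interval from -1.90 to -0.58, or 2.36-fold lower in Sgo1-/+.

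These are few counts. The library with the lowest WT value had 28 counts of Tbx18, with an exact 95% Poisson interval of 18.6 to 40.5, and the Sgo1-/+ library with the fewest had 12, with 6.20 to 20.96. The coefficient of variation between libraries was 10.4% in WT and 12.7% in Sgo1-/+, while counting alone gives 16.9 to 18.9% and 26.7 to 28.9% per library. A coefficient from 3 libraries is imprecise, and choosing a gene for groups that do not overlap favours a small one. These values therefore do not show a spread below counting error. The lowest WT value was 1.89 times the highest Sgo1-/+ value, the 10th widest gap among the 583 genes whose groups did not overlap and were lower. At the edge of this choice, the ratio was 1.0001 for Gm10480 just inside and 0.99999 for 6820408C15Rik just outside. The males differed by -1.27 in log2 normalized count (Sgo1-/+ minus WT, 1 library each) and the means of the females by -1.22. Without WT replicate 1 the log2 fold change of Tbx18 was -1.19. A gene model on the opposite strand, D030062O11Rik, shares 20.6% of the exon bases of Tbx18, and since the use of strand in counting is not stated, its reads and those of Tbx18 cannot be told apart.

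**Figure D1:**
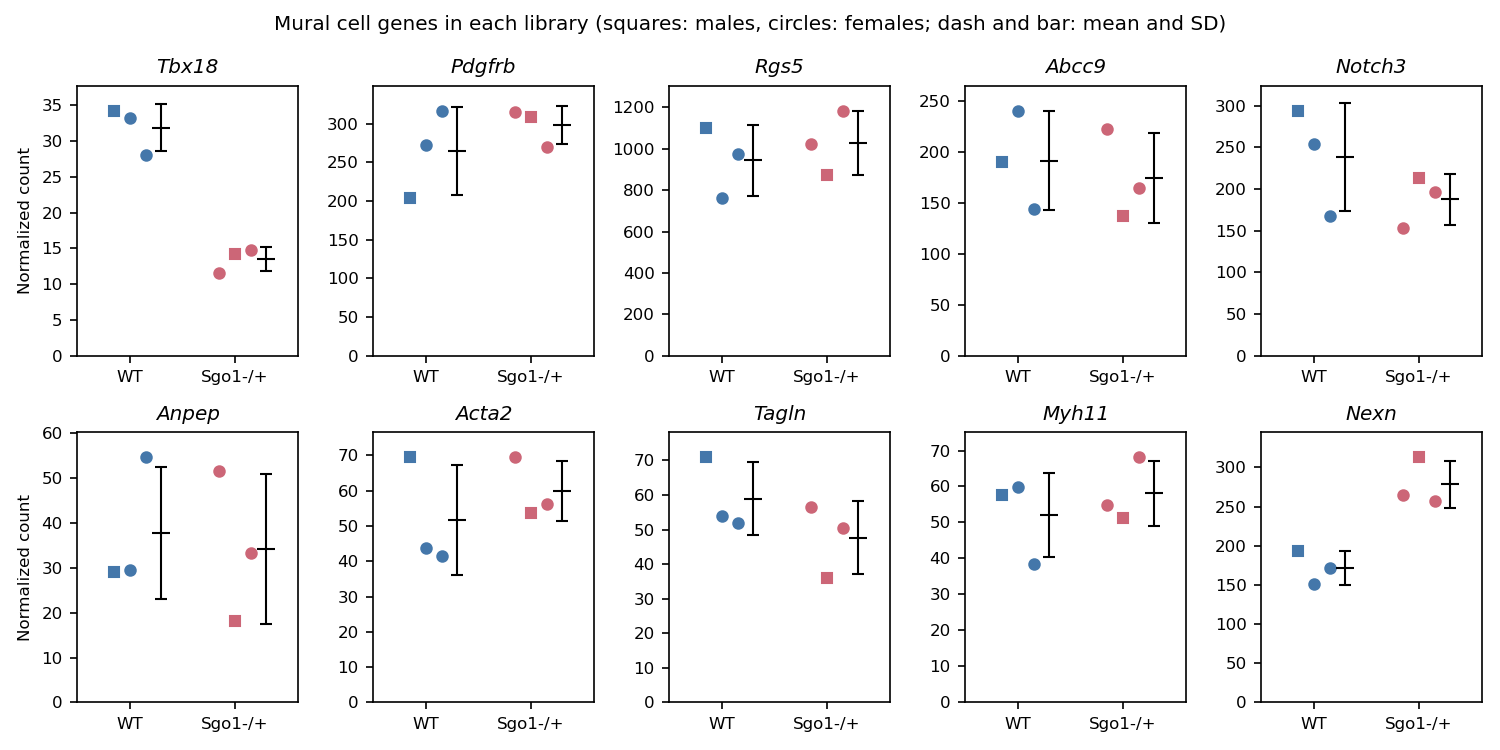
Normalized counts (vertical axis, from 0, a separate scale for each gene) of the 10 mural genes in each WT (blue) and Sgo1-/+ (red) library, with squares for males, circles for females, and the mean with its SD (n = 3) as a dash and bar beside each group. The groups do not overlap for Tbx18, lower in Sgo1-/+, and Nexn, higher in Sgo1-/+, and they overlap for the other 8 genes.

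The receptors and surface proteins of pericytes did not follow Tbx18 to lower counts together. Pdgfrb, the PDGF receptor beta, had normalized counts of 204, 272 and 317 in WT and 315, 309 and 269 in Sgo1-/+. The WT libraries spanned the whole Sgo1-/+ range, and the log2 fold change was 0.17 ± 0.183 (SE, 95% interval -0.26 to 0.60), with an exact permutation p of 0.7. Rgs5, a regulator of G protein signalling and among the most abundant pericyte transcripts, had 1100, 761 and 972 in WT and 1023, 874 and 1184 in Sgo1-/+. The groups overlapped, with a log2 fold change of 0.12 ± 0.175 (SE, 95% interval -0.29 to 0.54, exact permutation p = 0.6). Without WT replicate 1 the values were 0.02 for Pdgfrb and 0.25 for Rgs5.

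Abcc9, which encodes the sulfonylurea receptor subunit of the pericyte ATP-sensitive potassium channel, had 190, 241 and 144 in WT and 223, 137 and 164 in Sgo1-/+. High and low libraries occurred in both genotypes, and the log2 fold change was -0.13 ± 0.257 (SE, 95% interval -0.74 to 0.47, exact permutation p = 0.7). Notch3, the Notch receptor of mural cells, had 294, 254 and 168 in WT and 153, 213 and 196 in Sgo1-/+. WT replicate 3 lay within the Sgo1-/+ range and the other WT libraries above it. The log2 fold change was -0.35 ± 0.241 (SE, 95% interval -0.92 to 0.22, exact permutation p = 0.3), and without WT replicate 3 it was -0.54. Anpep, the aminopeptidase CD13 of pericytes, had 29.0, 29.5 and 54.6 in WT and 51.5, 18.1 and 33.2 in Sgo1-/+. It was the most variable of the 10, with coefficients of variation of 38.8% in WT and 48.9% in Sgo1-/+, and its log2 fold change without WT replicate 1 was -0.30. With all libraries the value of -0.14 ± 0.455 (SE, 95% interval -1.22 to 0.94, exact permutation p = 0.9) leaves a wide range of differences undetectable here.

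The contractile genes of smooth muscle divided between slightly higher and slightly lower values. Acta2, smooth muscle alpha-actin, had 69.5, 43.8 and 41.6 in WT and 69.5, 53.7 and 56.3 in Sgo1-/+. WT replicate 1 equalled the highest Sgo1-/+ library and the other WT libraries were below all of them. Its log2 fold change was 0.21 ± 0.281 (SE, 95% interval -0.45 to 0.88, exact permutation p = 0.6), and 0.49 without WT replicate 1. Tagln, the actin-binding protein SM22, had 71.0, 53.9 and 51.8 in WT and 56.6, 35.9 and 50.5 in Sgo1-/+. Its groups overlapped, with a log2 fold change of -0.31 ± 0.270 (SE, 95% interval -0.95 to 0.33, exact permutation p = 0.4). Without WT replicate 1 it was -0.16. An antisense gene, Gm48529, shares 62.4% of the exon bases of Tagln, so its counts are uncertain in the same way as those of Tbx18. Myh11, the smooth muscle myosin heavy chain, had 57.7, 60.0 and 38.6 in WT and 54.8, 51.2 and 68.2 in Sgo1-/+. Its groups also overlapped, with a log2 fold change of 0.16 ± 0.265 (SE, 95% interval -0.47 to 0.79, exact permutation p = 0.6).

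Nexn was the exception, in the direction opposite to Tbx18. The gene encodes nexilin, an actin filament-binding protein of muscle, and lies on chromosome 3 from 152236986 to 152266320 on the minus strand. A gene model on the same strand, Gm43185, shares 7.5% of the exon bases of Nexn, and reads from the shared bases cannot be told apart. Nexn had normalized counts of 194, 151 and 171 in WT and 265, 313 and 257 in Sgo1-/+. Every Sgo1-/+ library was above every WT library, in the male pair and among the females alike. The means were 172 ± 21.6 and 278 ± 30.3 (SD, n = 3 each), a log2 fold change of 0.70 ± 0.155 (SE, 95% interval 0.33 to 1.07), or 1.62-fold higher. The unadjusted p by edgeR was 0.0029 and the 9th lowest of all genes, the adjusted p was 0.9999, and the exact two-sided permutation p was 0.1, the smallest that 20 groupings of 6 libraries allow. Over the 13 alternative settings the adjusted p of edgeR, limma or DESeq2 ranged from 0.656 to 0.9999, so the difference did not pass the correction for all genes under any of them. Leaving out single libraries gave log2 fold changes from 0.60 to 0.79. Nexn may have been put among the 10 with its values in view, so its p is not independent of that choice.

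**Figure D2:**
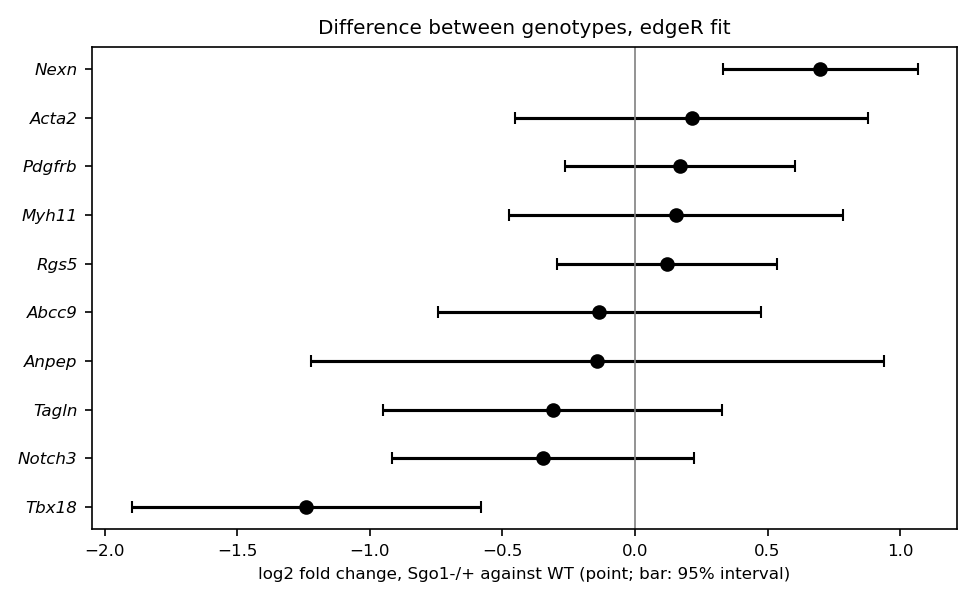
Log2 fold change of each mural gene, Sgo1-/+ against WT (horizontal axis, points, with bars for the 95% interval of the edgeR fit, n = 3 per group). Tbx18, chosen by this difference, is lowest at -1.24 and Nexn highest at 0.70, and the intervals of the other 8 genes include 0.

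Counted over the 9 genes other than Tbx18, 5 were higher and 4 lower in Sgo1-/+, with a median log2 fold change of 0.12 beside -0.0007 over all genes tested. None had an adjusted p under 0.05 by edgeR, limma or DESeq2. By edgeR 1 had an unadjusted p under 0.05 (Nexn), against 2.04% of all genes, and the groups of 1 did not overlap (Nexn), against 6.85% of all genes. The exact permutation p of the other 8 was between 0.3 and 0.9. Leaving out WT replicate 1 took the median to 0.02, and leaving out Sgo1-/+ replicate 3 took it to 0.0075. In bulk RNA, fewer cells of a type and less RNA per cell cannot be told apart, so these counts do not give the number of mural cells.

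Per length the 10 genes spanned a wide range. The order of normalized counts per kb of exon, averaged over the 6 libraries, was Rgs5 (217), Nexn (58.9), Pdgfrb (51.3), Tagln (26.8), Notch3 (26.3), Acta2 (25.4), Abcc9 (21.9), Anpep (8.70), Myh11 (7.25) and Tbx18 (4.81). Rgs5 stood above Nexn without overlap of their libraries, at 167 to 260 against 39.3 to 81.9. Nexn and Pdgfrb (37.3 to 57.8) overlapped, and so, below them, did the neighbours Tagln, Notch3, Acta2 and Abcc9 among themselves (16.3 to 36.3 in all, below every Pdgfrb library). Anpep, Myh11 and Tbx18 overlapped at the bottom, from 2.46 to 13.2 per kb, and no library of these 3 reached the lowest of Abcc9. The lowest Nexn library, at 39.3 per kb, was above the highest of the contractile genes Acta2, Tagln and Myh11, at 35.7 per kb. The defining contractile marker Cnn1 (calponin) had at most 10.1 normalized counts in a library, and Myocd (myocardin), the SRF coactivator, at most 4.05, and neither passed the filter on low counts. Which cells gave the Nexn reads was not tested.

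**Figure D3:**
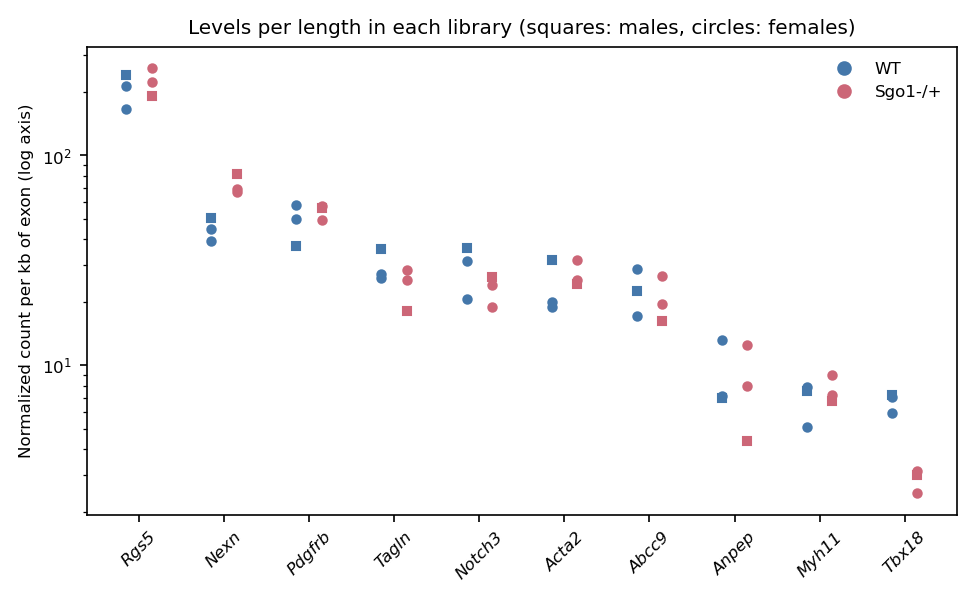
Normalized counts per kb of exon (vertical log axis) of the 10 genes in each library, in the order of their mean, with WT in blue, Sgo1-/+ in red, squares for males and circles for females. Rgs5 is highest at a mean of 217 and Tbx18 lowest at 4.81, and Tbx18 and Nexn are the genes whose colours separate.

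Ratios within a library were taken as differences of log2 CPM with a pseudocount of 0.5 CPM. At the low counts of Tbx18 the pseudocount makes its ratios smaller in size than plain ratios of counts, and more so in Sgo1-/+. The values therefore still depend somewhat on how the libraries were scaled. Against the mean of the log2 CPM of Pdgfrb, Rgs5, Abcc9, Notch3 and Anpep, Tbx18 stood at -2.43, -2.47 and -2.68 in WT and -3.73, -3.18 and -3.35 in Sgo1-/+. Against Rgs5 alone it stood at -4.78, -4.29 and -4.84 in WT and -5.87, -5.44 and -5.83 in Sgo1-/+. The groups did not overlap in either ratio, which the choice of Tbx18 makes likely. The log2 ratio of Nexn to the mean of Acta2, Tagln and Myh11 was 1.48, 1.43 and 1.84 in WT and 2.04, 2.61 and 2.04 in Sgo1-/+. That of Nexn to Tbx18 was between 2.00 and 2.38 in WT and between 3.66 and 3.98 in Sgo1-/+. The separation of this last ratio adds nothing, since Tbx18 was lower and Nexn higher in every Sgo1-/+ library.

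**Figure D4:**
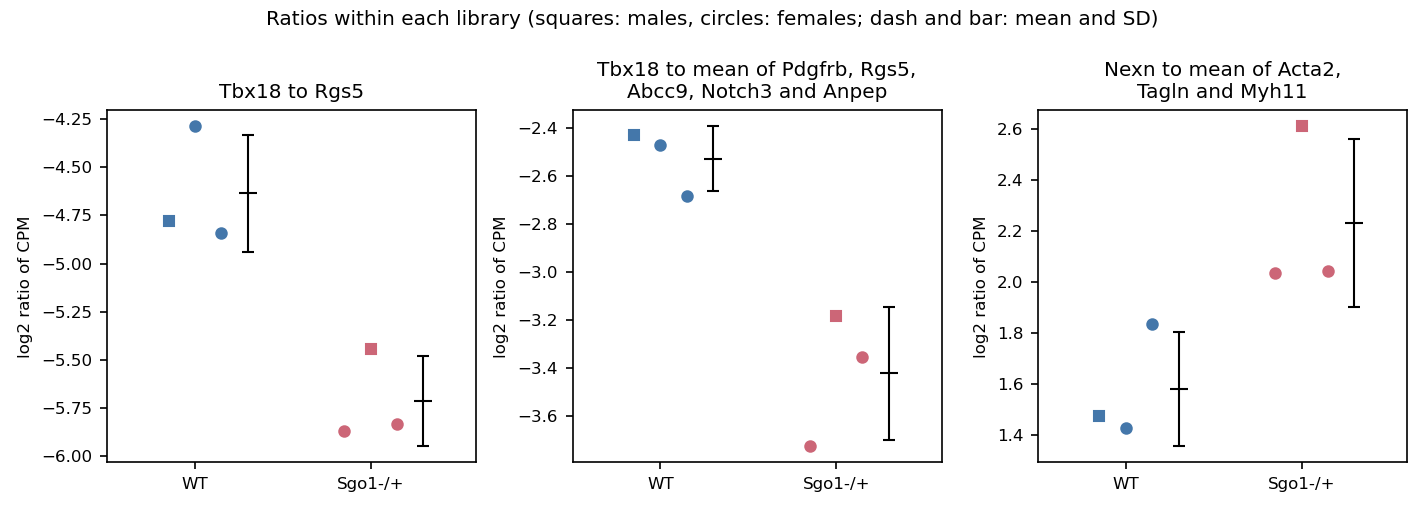
Log2 ratios of CPM within each library (vertical axes) of Tbx18 to Rgs5, Tbx18 to the mean of the 5 pericyte and receptor genes, and Nexn to the mean of 3 contractile genes, in WT (blue) and Sgo1-/+ (red), with squares for males, circles for females, and mean with SD (n = 3) as dash and bar. Tbx18 is lower against the pericyte genes in every Sgo1-/+ library, at most -3.18 against at least -2.68 in WT, and Nexn is higher against the contractile genes, at least 2.04 against at most 1.84.

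The genes whose pattern over the 6 libraries was most like that of Tbx18 were not mural genes of the lists used. Likeness was the root mean square difference of centred log2 CPM, and the 5 nearest of 16336 genes were Adamts5 (0.125), which encodes an aggrecan-cleaving protease, Slc28a3 (0.131), a nucleoside transporter, Gm5431 (0.136), 4931422A03Rik (0.167) and Tmem170 (0.172). Adamts5 had 71.5, 71.9 and 54.0 normalized counts in WT and 28.8, 25.6 and 34.8 in Sgo1-/+. Slc28a3 had only 2 to 16 and Gm5431 4.33 to 16 estimated counts per library. The pseudocount was 0.5 CPM, which stands for several counts in libraries of this size, so it weighs strongly on their likeness. It also shrinks the pattern of Tbx18 itself (12 to 35 counts per library) and those of 4931422A03Rik and Tmem170, and so affects the ranking. The log2 fold change of Slc28a3 was -1.74. Among the mural genes Notch3 came nearest, at rank 466 (0.367), followed by Tagln at 1325 (0.414), and Nexn was farthest, at rank 14972 (0.830). These likenesses describe the pattern Tbx18 was chosen by and carry no test.

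Further pericyte genes were also divided. Of 17 listed, all were tested, 7 were higher and 10 lower in Sgo1-/+, with a median log2 fold change of -0.04. Those with an unadjusted p under 0.05 by edgeR were 2, both lower (background 1.23%), and both overlapped between the groups: Ifitm1, an interferon-induced membrane protein gene, at -1.29 ± 0.512 (SE, edgeR p = 0.0402, exact permutation p = 0.2), and Slc6a20a, a proline transporter gene, at -0.65 ± 0.266 (SE, edgeR p = 0.0458, exact permutation p = 0.2), each with an adjusted p of 0.9999. The unadjusted p of Ifitm1 was above 0.05 without WT replicate 2 (-0.88), Sgo1-/+ replicate 2 (-0.98) or Sgo1-/+ replicate 3 (-1.21), and that of Slc6a20a without WT replicate 1 (-0.59), WT replicate 2 (-0.48), Sgo1-/+ replicate 2 (-0.52) or Sgo1-/+ replicate 3 (-0.58). Kcnj8, the pore subunit that pairs with the product of Abcc9, had 59.2, 76.7 and 49.2 normalized counts in WT and 67.6, 41.5 and 58.1 in Sgo1-/+ (-0.15 ± 0.283, SE). Within each genotype the libraries fell in the same order as for Abcc9. Of the 3 channel partners Kcnj8, Kcnj11 and Abcc8, 2 were higher and 1 lower, none with a p under 0.05. Vtn (vitronectin), abundant in brain pericytes, stood at -0.04 ± 0.131 (SE), with a 95% interval from -0.35 to 0.27. Cspg4, the proteoglycan NG2 that oligodendrocyte precursors also make, stood at 0.39 ± 0.226 (SE, exact permutation p = 0.2), at 0.18 without WT replicate 1, and at 0.58 without WT replicate 3, where the unadjusted edgeR p was under 0.05.

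Further smooth muscle genes gave a median log2 fold change of 0.35 over 14 tested of 18 listed, 8 higher and 6 lower. This median rested on single libraries, being -0.04 without Sgo1-/+ replicate 1 and 0.11 without Sgo1-/+ replicate 3. Lmod1, a leiomodin of smooth muscle, had 24.7, 23.5 and 19.3 normalized counts in WT and 13.9, 12.2 and 15.1 in Sgo1-/+. Its groups did not overlap (-0.72 ± 0.297, SE, edgeR p = 0.0470, adjusted p = 0.9999, exact permutation p = 0.1), and the unadjusted p was above 0.05 with any 1 library left out (-0.82 to -0.64). Lmod1 was named for its unadjusted p or its groups, and groups that do not overlap always give an exact permutation p of 0.1 here. Its p-values are thus not independent of that choice. The same holds for Mylk, and below for Rbpj, Vcl, Flt1, Slco1a4, Slc22a6, Fbln1 and Aldh1a2. Mylk, the myosin light chain kinase, had 105, 161 and 156 in WT and 178, 186 and 185 in Sgo1-/+. Its groups did not overlap in the other direction (0.38 ± 0.195, SE, exact permutation p = 0.1), and without WT replicate 1, the lowest library, the value was 0.21. Lmod1 and Mylk were each the only gene of the 14 without overlap in their direction, beside 3.57% of all genes lower and 3.28% higher.

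On the PDGF route, Pdgfb, the endothelial ligand of the Pdgfrb receptor, stood at 0.35 ± 0.260 (SE, exact permutation p = 0.4), at 0.10 without WT replicate 1 and at 0.52 without WT replicate 3. Of the 5 ligands and the alpha receptor listed, 3 were higher and 2 lower, with no p under 0.05 and a median of 0.06, which was 0.35 without WT replicate 2. On the Notch route, Jag1, a ligand, stood at -0.36 ± 0.199 (SE, exact permutation p = 0.2), with WT replicate 1 within the Sgo1-/+ range. Without that library it was -0.51, with an unadjusted p under 0.05. Heyl, a target gene of NOTCH3, had normalized counts of 135, 114 and 77.1 in WT and 70.5, 69.9 and 55.3 in Sgo1-/+. Every Sgo1-/+ library was below every WT library, with a log2 fold change of -0.74 ± 0.260 (SE, 95% interval -1.35 to -0.12, edgeR p = 0.0256, adjusted p = 0.9999, exact permutation p = 0.1). The unadjusted p of Heyl was above 0.05 without WT replicate 1 (-0.55), WT replicate 2 (-0.70), Sgo1-/+ replicate 2 (-0.80) or Sgo1-/+ replicate 3 (-0.63). Rbpj, the DNA-binding factor of the pathway, had 529, 494 and 492 in WT and 450, 410 and 462 in Sgo1-/+, again without overlap, at -0.20 ± 0.106 (SE, exact permutation p = 0.1). Of 14 Notch pathway genes, 6 were higher and 8 lower with a median of -0.02, 1 had a p under 0.05 (Heyl, lower, background 1.23%), and 2 were lower without overlap of the groups (Heyl and Rbpj, background 3.57%).

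Of 10 tested genes of the SRF and myocardin programme, 9 were higher in Sgo1-/+ and 1 lower, with a median of 0.25 and no p under 0.05. Without WT replicate 1 the median was 0.08, with 2 of the 10 lower. Srf itself stood at 0.32 ± 0.239 (SE, exact permutation p = 0.4), and at 0.10 without WT replicate 1, which was the lowest library for 6 of the 10. Vcl (vinculin), which links actin to the membrane, had 404, 343 and 336 normalized counts in WT and 441, 439 and 429 in Sgo1-/+. Its groups did not overlap (0.27 ± 0.117, SE, exact permutation p = 0.1), and without WT replicate 1 the value was 0.36, with an unadjusted p under 0.05. Vcl was the only gene of the 10 without overlap, beside 3.28% of all genes higher without overlap. In the T-box family 8 of 16 genes were tested, 2 higher and 6 lower, with no p under 0.05 and a median of -0.14. Tbx15, the gene closest to Tbx18 in the family, had 10.1, 34.6 and 11.7 in WT and 13.9, 6.08 and 8.24 in Sgo1-/+. WT replicate 2 alone set its mean apart (-0.999 ± 0.597, SE, -0.24 without that library).

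Other vascular cell types were measured beside the mural genes. Of 17 endothelial genes, 13 were higher and 4 lower, with a median of 0.12. Sgo1-/+ replicate 1 was the highest library for 11 of the 17, and without it the median was -0.13 with 14 of 17 lower. Flt1, a VEGF receptor, was higher (0.12 ± 0.0944, SE) and Slco1a4, a transporter of the blood-brain barrier, lower (-0.20 ± 0.104, SE), each without overlap of the groups and with an exact permutation p of 0.1. Each was the only gene of the 17 without overlap in its direction, beside 3.28% of all genes higher and 3.57% lower. Genes of perivascular and meningeal fibroblasts, cells in which vessels and the coverings of the brain are embedded, were lower in Sgo1-/+ for all 15 of the 15 listed, with a median of -0.61. The groups of 3 of the 15 did not overlap (background 3.57%), namely Slc22a6, an organic anion transporter gene (-1.11 ± 0.304, SE), Fbln1, fibulin 1 (-0.78 ± 0.232, SE), and Aldh1a2, which makes retinoic acid (-0.88 ± 0.402, SE), each with an adjusted p of 0.9999 by edgeR and an exact permutation p of 0.1. Aldh1a2 stood at -0.57 without Sgo1-/+ replicate 2 and at -1.43 without Sgo1-/+ replicate 1.

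The summed normalized count of the fibroblast list was 3476, 3562 and 2698 in WT and 3249, 1040 and 2747 in Sgo1-/+. Relative to the median library, the list's median log2 ratio was 0.21, 0.34 and 0.01 in WT and 0.11, -1.13 and -0.62 in Sgo1-/+. Sgo1-/+ replicate 2 was the lowest library for 14 of the 15 genes. The count was 13 of 15 lower without WT replicate 1. Without Sgo1-/+ replicate 2 the list's median fold change was -0.30 with 12 of 15 lower, and without Sgo1-/+ replicate 1 it was -1.01. In Sgo1-/+ replicate 1 the summed count and the median ratio of the fibroblast list lay within the WT range, but its single genes did not all do so. That library was the highest for 5 of the 15 genes and below every WT library for Slc22a6, Fbln1 and Aldh1a2. Tbx18 stood there at 11.6 normalized counts, and the few counts of Tbx18 give no order among the Sgo1-/+ libraries. Without Sgo1-/+ replicate 2 the fold change of Tbx18 was -1.28. The part of fibroblast genes in the difference of Tbx18 was not tested. Choroid plexus genes varied by library rather than genotype, with 3 of 10 higher and 7 lower, a median of -0.17, and medians per library from -2.34 to 1.85. All 7 tested genes of cerebellum and brain stem were lower in Sgo1-/+ (median -3.90), with WT replicate 1 the highest library for every one, and 3 of them had a p under 0.05 (background 1.23%): Slc6a5 (-6.78, and -1.50 without WT replicate 1), Ebf3 (-3.54 and -0.79) and Glra1 (-3.90 and -0.07). Of 8 cortex and hippocampus genes, 7 were higher, with a median of 0.47. Without WT replicate 1 the median was 0.02 for these and 0.17 for the genes of cerebellum and brain stem. WT replicate 1 also had the lowest Pdgfrb (204) and the highest Notch3 (294), Tagln (71.0) and Heyl (135), and without it the fold change was -0.17 for Notch3 and 0.79 for Nexn.

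**Figure D5:**
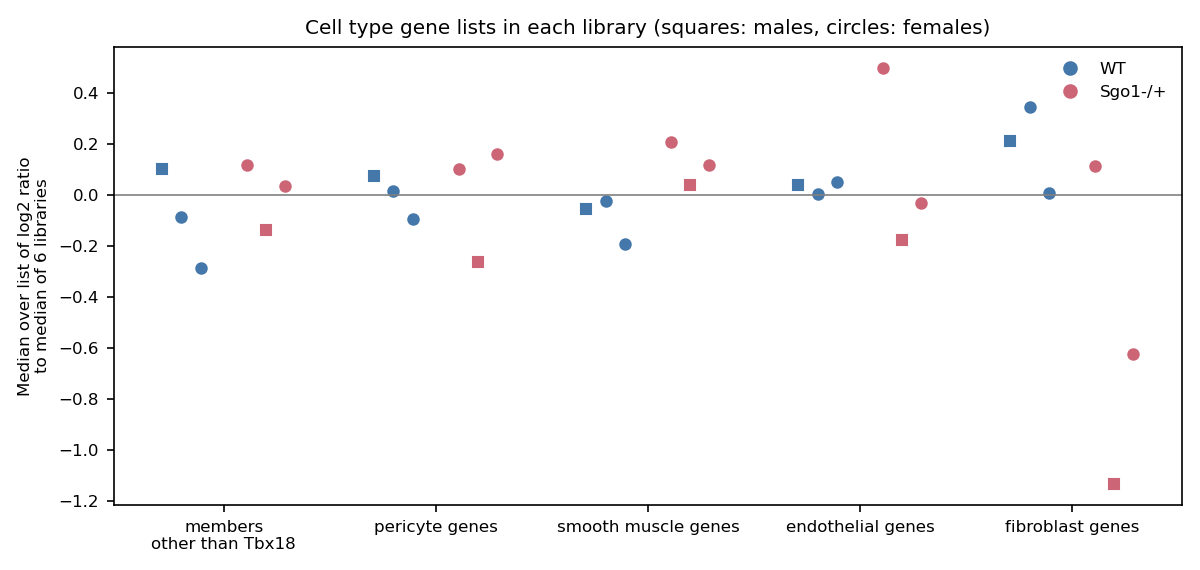
Each list's median log2 ratio to the median library (vertical axis) for the 9 mural genes and the lists of pericyte, smooth muscle, endothelial and fibroblast genes, in WT (blue) and Sgo1-/+ (red), with squares for males and circles for females. The mural lists stay between -0.29 and 0.21 in every library, while the fibroblast list falls to -1.13 in Sgo1-/+ replicate 2 and -0.62 in Sgo1-/+ replicate 3 and endothelial genes reach 0.50 in Sgo1-/+ replicate 1.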

How the data were processed

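RNA-seq libraries (Illumina RNA TruSeq V2, paired reads) of 3 WT and 3 Sgo1-/+ cerebra were aligned by the authors to mm10 in Strand NGS 2.1 and deposited as estimated counts per gene without normalization. The submitters' processing notes also name BWA and edgeR. The annotation release and the use of strand in counting are not given in the sources used here. The table also holds the authors' DESeq-normalized log2 values and fold changes, which were not used. Its columns name no genotype and were read as WT for the first 3 brains and Sgo1-/+ for the others, under which Xist and Ddx3y matched the labelled sexes.

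The estimated counts were rounded and analysed in edgeR 4.0.16 (TMM, quasi-likelihood F test, default filter on low counts, 16337 genes, no covariate, Benjamini-Hochberg adjustment) in R 4.3.3. The standard error is the log2 fold change divided by the square root of F. Single genes were also compared by exact two-sided permutation over 20 groupings. Totals ranged from 11123917 to 12505561. A count of 0 allows up to 3 counts by an upper 95% limit alone, while the Poisson intervals given for Tbx18 have a lower and an upper limit. Exon lengths and overlaps came from GENCODE M21, which holds 36308 of the 38087 gene IDs. Log2 CPM used a pseudocount of 0.5 CPM, added after scaling. For single libraries, lists were summarised by their median log2 ratio to the median library. No 2 libraries were duplicates, with at most 1.82% of values equal. Replicates are separate mice, so p-values measure the spread between mice and between library preparations together.

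The 10 genes and the 12 lists were chosen with earlier results of these data known. Genes named are the 10, 10 partners (Kcnj8, Cspg4, Vtn, Cnn1, Myocd, Srf, Pdgfb, Jag1, Heyl, Tbx15), up to 4 genes per list with an unadjusted p under 0.05 or non-overlapping groups, and the 5 genes most like Tbx18. The p-values of list genes named by that rule are not independent of it. With 3 libraries per genotype, groups that do not overlap always give an exact permutation p of 0.1. Alternatives were DESeq2 1.42.0, limma 3.58.1 on log2 DESeq-normalized counts plus 1, DESeq2 size factors, no filter, a minimum of 10 counts in all 6 libraries, a covariate for sex, the replicate block, and each library left out. The fits were tested on simulated data.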

Additional observations from a re-analysis of the deposited data

Results flagged for a closer look

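For Rgs5 and Acta2 all females differed by genotype in one direction and the males in the other, and the difference was not tested, since the males are 1 library per genotype. For Rgs5 the log2 normalized count (Sgo1-/+ minus WT) differed by 0.36 in females, whose groups did not overlap, and by -0.33 in males, so that males minus females was -0.69. For Acta2 the values were 0.55 in females, again without overlap, -0.37 in males, and -0.92 for males minus females. The male WT library is WT replicate 1, which stood apart from the others, so sex and that library cannot be told apart. Other genes had differences of opposite sign in the sexes with females that overlapped: Tagln (0.02 in females and -0.98 in males), Anpep (0.04 and -0.69), Abcc9 (0.04 and -0.48), Myh11 (0.35 and -0.17) and Pdgfrb (-0.01 and 0.60).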

How the results depend on the processing

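Tbx18 stayed lower under all 13 alternatives, with log2 fold changes from -1.32 (without WT replicate 3) to -1.16 (without Sgo1-/+ replicate 1), and Nexn kept an unadjusted p under 0.05 in all 13. DESeq2's Wald test called 3 genes by adjusted p (LAMTOR3, AA465934 and Ablim3, named after their values were seen), limma 0, and leaving out single libraries 0 to 1 (Gm13841, without Sgo1-/+ replicate 2). Without the filter 563 genes had an unadjusted p under 0.05. Leaving out single libraries gave 240 to 1040 such genes (1040 without WT replicate 3, 626 without WT replicate 1), 1 to 2 of the 9 mural genes (Notch3 added without WT replicate 3), and medians of the 9 from 0.0075 to 0.15. The sign turned within the leave-one-out ranges of Rgs5 (-0.012 to 0.25), Abcc9 (-0.35 to 0.064), Anpep (-0.57 to 0.22), Myh11 (-0.017 to 0.27), Kcnj8 (-0.31 to 0.033), Vtn (-0.14 to 0.064), the pericyte list (median -0.17 to 0.064) the smooth muscle list (-0.040 to 0.42), the Notch list (-0.096 to 0.069), the endothelial list (-0.13 to 0.23) and the cerebellum and brain stem list (-4.46 to 0.17). The lists' values without single libraries were chosen after seeing the data, and those of the fibroblast list ran from -1.01 to -0.30. The causes were not tested. The replicate numbers did not pair the libraries (same-number r from -0.20 to 0.02, and 0 of 6 libraries correlated best with their own number), and with a replicate block 280 genes had an unadjusted p under 0.05, Tbx18 stood at -1.24 and 0 genes passed the adjusted threshold. With 12 to 35 counts of Tbx18 per library, counting limits the precision of that gene.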
